A study of Homo sapiens with 9 samples.

Results

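The chromatin modifier and remodeler families described here are the protein-coding genes whose symbols begin with KDM, KMT, BRWD, BRPF, SMARC, ARID, SETD or HDAC, or with BRD or CHD and a digit, with KMT2A left out. The rule found 92 members among the 58735 counted genes, 18 with the KDM prefix, 13 SMARC, 11 HDAC, 11 SETD, 10 ARID, 10 CHD, 8 BRD, 7 KMT, 2 BRPF and 2 BRWD. Of these, 89 passed the filter on low counts. ARID3C, CHD5 and KDM6A did not, with no more than 9 reads in any library. BRD3OS, a gene on the opposite strand to BRD3, is a member by its name alone.

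All libraries came from THP-1, an established human acute myeloid leukaemia line that carries the MLL-AF9 fusion, in which part of KMT2A is joined to MLLT3. The cells received lentivirus, made in 293T cells, with an shRNA against the transcription factor NFATC2 (the construct called shRNA-143 or the one called shRNA-146) or with a non-targeting control shRNA. Puromycin selection began at 24 hours and polyadenylated RNA was taken at 48 hours, with 3 libraries in each of the 3 groups. No source used here says that the 3 libraries of a group were separate cultures, so each p-value reflects only the variation among these libraries, and that variation may be technical.

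Chromatin modifiers write, remove or read chemical marks on histone tails. KMT and SETD proteins are mostly lysine methyltransferases, KDM proteins remove methyl groups, HDAC proteins remove acetyl groups, and bromodomain proteins bind acetylated lysines. Many SMARC and some ARID proteins build the ATP-driven BAF (SWI/SNF) complexes that move nucleosomes, and CHD proteins form another remodeler family. Leukaemias with a KMT2A fusion are known to depend on several such proteins, among them KDM1A. NFAT factors are brought to the nucleus by calcineurin and bind DNA with the core GGAAA.

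The sequences below are shown because BRWD3, BRPF3 and SETD7 are the members that passed the edgeR test over both shRNAs with all 9 libraries and a block for replicate number (none passed without the block), and the targeted factor has a known core motif. Each is the RefSeq promoter window from 250 bases before to 50 bases after the gene start (GRCh38.p14), 5′ to 3′ on the gene's strand. Capitals mark GGAAA or its reverse complement TTTCC.
BRWD3, chrX:80809828-80810127, minus strand: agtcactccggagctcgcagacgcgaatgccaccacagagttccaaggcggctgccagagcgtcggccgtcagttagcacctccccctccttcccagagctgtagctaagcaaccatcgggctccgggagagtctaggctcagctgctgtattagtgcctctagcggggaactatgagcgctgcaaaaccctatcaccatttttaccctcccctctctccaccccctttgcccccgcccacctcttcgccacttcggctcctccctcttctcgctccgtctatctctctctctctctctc
BRPF3, chr6:36196494-36196793, plus strand: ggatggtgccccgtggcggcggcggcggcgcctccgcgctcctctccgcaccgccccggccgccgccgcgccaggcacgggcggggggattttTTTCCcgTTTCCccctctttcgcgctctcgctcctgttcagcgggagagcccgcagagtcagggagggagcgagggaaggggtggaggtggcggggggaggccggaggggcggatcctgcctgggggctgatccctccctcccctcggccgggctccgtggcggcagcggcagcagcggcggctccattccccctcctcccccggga
SETD7, chr4:139556170-139556469, minus strand: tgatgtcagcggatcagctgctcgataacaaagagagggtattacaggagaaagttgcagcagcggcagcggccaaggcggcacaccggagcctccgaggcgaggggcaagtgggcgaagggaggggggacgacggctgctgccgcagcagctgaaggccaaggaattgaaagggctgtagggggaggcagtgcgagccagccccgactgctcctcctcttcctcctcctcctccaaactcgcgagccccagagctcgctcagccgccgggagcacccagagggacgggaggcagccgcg
The BRPF3 window held 2 matches, which do not overlap each other and begin at -157 and -150 from the start. The BRWD3 and SETD7 windows held 0. The RefSeq start used for SETD7 lies inside the deposited span of the gene. The BRWD3 window lies wholly upstream of that gene's deposited span, which ends at 80809688. For both genes the counts of 0 hold only for the windows shown. The core on either strand was in 56.8% of the 81 member promoters matched by symbol (46 of 81), against 61.4% of all 27305 promoters of the same length. A match is only a run of letters, and binding was not measured.

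Library totals ran from 40047459 to 44669709 counts. NFATC2 was at 1.49, 7.40 and 6.95 CPM (counts scaled to the library total with TMM factors) with shRNA-143 and at 2.59, 6.71 and 9.43 CPM with shRNA-146, against 12.7, 27.6 and 27.4 CPM in control, for the libraries numbered 1, 2 and 3. It was below every control in all 6 shRNA libraries, and it fell in the test with the block (log2 fold change -2.27 ± 0.24, adjusted p = 0.00168, and -1.96 ± 0.23, adjusted p = 0.00435, for shRNA-143 and shRNA-146) but not without it (adjusted p = 0.497 and 0.464). All 12 myeloid markers examined passed the filter, CD68 with at most 0.538 CPM and CD14 with at most 4.04 CPM, while no T cell or erythroid marker exceeded 0.0627 CPM. Among B cell markers CD79A reached 1.52 CPM and MS4A1 had no count. The libraries numbered 1 stood apart from the rest in all 3 groups, and the members were among the genes in which they did so. Members held 0.239%, 0.528% and 0.498% of all counts in the shRNA-143 libraries, 0.247%, 0.462% and 0.544% in the shRNA-146 libraries and 0.244%, 0.432% and 0.329% in the control libraries, in the order of their numbers. Tests are therefore given both without and with the replicate number as a block, and results that rest on the libraries numbered 1 are given without them too.

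Levels were compared between members per kilobase of the deposited gene length. HDAC1, a class I deacetylase of the NuRD, Sin3 and CoREST complexes, was the highest, at 56.6 ± 10.4 CPM per kilobase with shRNA-143, 49.6 ± 7.37 with shRNA-146 and 54.9 ± 9.49 in control (SD, n = 3). SMARCD2, a BAF subunit needed for granulocyte differentiation, came next, at 43.0 ± 3.999 and 39.9 ± 3.80 with shRNA-143 and shRNA-146 and 41.8 ± 3.92 in control. CHD1L, SMARCD1 and HDAC2 followed at 25.7, 23.9 and 21.9 CPM per kilobase over the 9 libraries, and their order was not separated by their spread. The highest members of the other families by this measure were SETD3 (17.4 CPM per kilobase), an actin histidine methyltransferase, BRD2 (14.5), KDM1A (13.8), ARID3A (10.4), KMT5A (9.33), the H4K20 monomethyltransferase, BRPF3 (7.36) and BRWD1 (1.70). At the low end of the tested members stood SMARCA1, an ISWI ATPase, at 0.0431 CPM per kilobase, HDAC11 at 0.0749 and KDM7A at 0.0875. BRWD3 was also low, at 0.730 CPM per kilobase.

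The first question was which members differed between the NFATC2 shRNAs and control. BRWD3 stood apart from the rest, at 2.2 times its control level over both shRNAs. BRWD3 (ENSG00000165288, chromosome X, 80670854 to 80809688, minus strand, hg38) encodes a bromodomain and WD repeat protein that serves as a substrate receptor of CUL4 ubiquitin ligases. It had 8.49, 12.8 and 12.1 CPM with shRNA-143 and 11.1, 12.0 and 11.5 CPM with shRNA-146, against 4.66, 5.44 and 5.31 CPM in control. All 6 shRNA libraries lay above all 3 controls, and the library numbered 1 was the lowest of each group. In RNA from bulk cells, more cells with the transcript and more RNA per cell cannot be told apart. Group means were 11.1 ± 2.33 CPM with shRNA-143, 11.5 ± 0.420 CPM with shRNA-146 and 5.14 ± 0.418 CPM in control (SD, n = 3). The log2 fold change for the mean of both shRNAs was 1.14 ± 0.19 without the block (adjusted p = 0.121) and 1.14 ± 0.15 with it (adjusted p = 0.00504, edgeR quasi-likelihood test). With the block BRWD3 also rose with shRNA-143 alone (1.11 ± 0.17, adjusted p = 0.00799) and with shRNA-146 alone (1.17 ± 0.17, adjusted p = 0.00613). The authors' deposited tables give BRWD3 log2 fold changes of 1.14 and 1.18 with adjusted p-values of 0.00558 and 0.00551 for shRNA-143 and shRNA-146, from the same libraries. Without control replicate 2, or without control replicate 3, the blocked test for both shRNAs called 0 members, and the BRWD3 change stayed at 1.11 and 1.13. Its paralog BRWD1, a reader of acetylated histones known from B cell development, was at 32.9, 29.6 and 39.9 CPM with shRNA-143 and 41.7, 25.6 and 32.5 CPM with shRNA-146, against 39.1, 28.2 and 33.4 CPM in control. The BRWD1 groups overlapped fully, and its change was 0.01 ± 0.20 without the block.

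**Figure D1:**
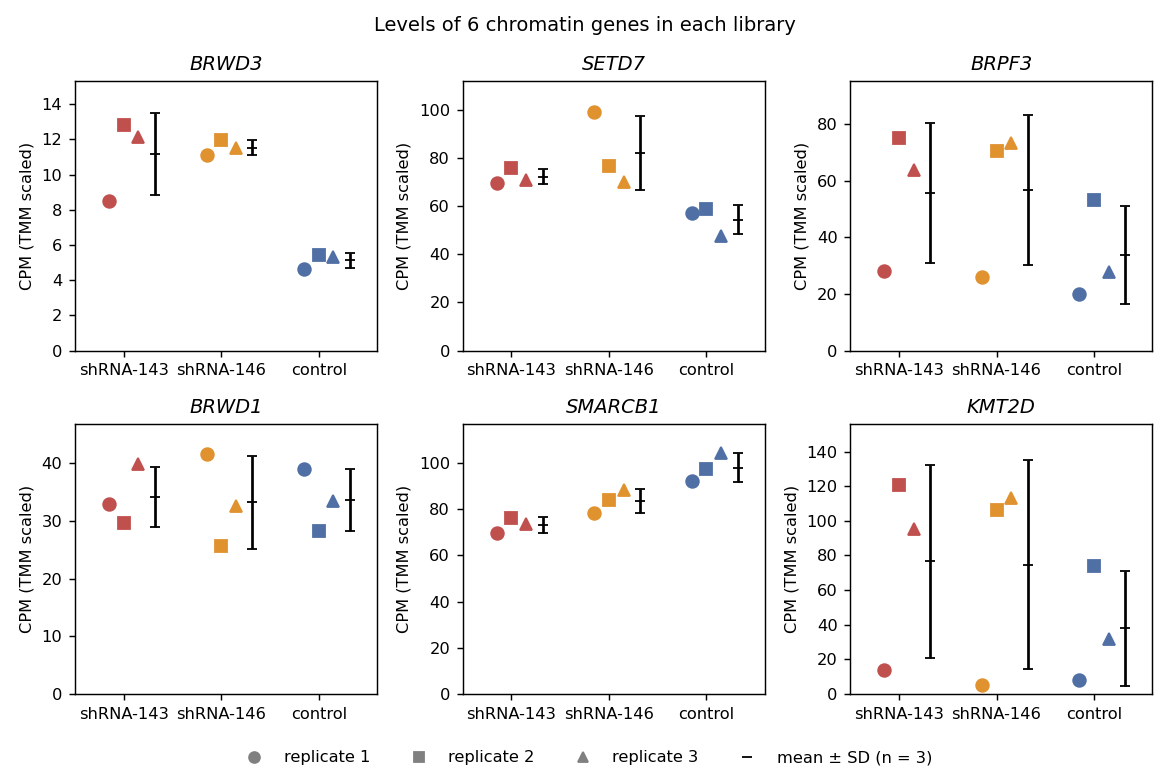
Levels of 6 members in CPM after TMM scaling, in the 3 libraries of each group, with the replicate number as the symbol and the mean ± SD (n = 3) as a bar. The shRNA libraries of BRWD3 lie between 8.49 and 12.8 CPM, above control libraries between 4.66 and 5.44, while in BRPF3 and KMT2D the libraries numbered 1 (circles) are the lowest of every group.

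SETD7 and BRPF3 rose over both shRNAs in the test with the block and did not pass without it. SETD7 (ENSG00000145391, chromosome 4, 139495941 to 139606699, minus strand), a monomethyltransferase of H3K4 and of several other proteins, had 69.7, 75.6 and 71.0 CPM with shRNA-143 and 99.1, 76.6 and 69.8 CPM with shRNA-146, against 56.9, 58.9 and 47.4 CPM in control. Its groups did not overlap. Its change was 0.50 ± 0.13 with the block (adjusted p = 0.0447) and 0.50 ± 0.17 without it (adjusted p = 0.418), and with the block it passed for shRNA-146 (0.58 ± 0.14, adjusted p = 0.0455) but not for shRNA-143 (0.42 ± 0.14, adjusted p = 0.138).

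BRPF3 (ENSG00000096070, chromosome 6, 36196744 to 36232790, plus strand), a scaffold of MYST histone acetyltransferase complexes, had 28.0, 75.0 and 63.9 CPM with shRNA-143 and 26.0, 70.5 and 73.4 CPM with shRNA-146, against 20.1, 53.1 and 27.9 CPM in control. Its groups overlapped, since the libraries numbered 1 were low in each, but within every number both shRNA libraries were above their control. The change was 0.71 ± 0.17 with the block (adjusted p = 0.0381) and 0.74 ± 0.45 without it (adjusted p = 0.669). The BRPF3 call was lost in 7 of the 9 fits that left out a library and the SETD7 call in 6 of them, while the changes stayed between 0.44 and 0.85 and between 0.42 and 0.56.

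Counts over all members were small. Without the block 0 of 89 members passed in any comparison, where the share of all 14975 tested genes that passed was 0.0467% for shRNA-143, 0.0334% for shRNA-146, 0.0334% for the mean of both and 0.0467% between the shRNAs. At an unadjusted p under 0.05, 1 was higher and 1 lower with shRNA-143, and 3 were higher and 1 lower with shRNA-146. For the mean of both, 4 were higher (BRWD3, HDAC9, KDM3A and SETD7) and 1 lower (SMARCB1). The share of all tested genes at this unadjusted cut is not given, so no excess of members can be read from these counts. DESeq2 without the block called BRWD3 alone for shRNA-143, for shRNA-146 and for the mean of both, where it called 0.387%, 0.641% and 0.775% of all tested genes higher. With the block 1 member rose with shRNA-143 (BRWD3), 2 rose with shRNA-146 (BRWD3 and SETD7) and 3 rose over both (BRWD3, SETD7 and BRPF3), and 0 fell. The background of genes that rose was 1.6%, 2.46% and 2.98%, and that of genes that fell was 1.57%, 1.96% and 2.75%. The members' shares were thus close to those of all genes. In the authors' deposited tables BRWD3 was likewise the sole member called, where 0.21% and 0.151% of listed genes were called higher and 0.374% and 0.101% lower with shRNA-143 and shRNA-146.

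Counting libraries instead of tests gave a similar picture. All 6 shRNA libraries were above all 3 controls for BRWD3 and SETD7, and all 6 below for SMARCB1, against 3.08% and 2.77% of all tested genes. SMARCB1, the BAF core subunit lost in rhabdoid tumours (ENSG00000099956, chromosome 22, 23786931 to 23838008, plus strand), had 69.5, 76.2 and 73.8 CPM with shRNA-143 and 78.2, 83.9 and 88.5 CPM with shRNA-146, against 92.1, 97.6 and 105 CPM in control. Its log2 fold change, -0.33 ± 0.10 with the block, did not pass (adjusted p = 0.0793; without the block, 0.485). Some of its exon bases are shared with DERL3. With shRNA-143 alone HDAC9, SETD3 and SMARCD1 also lay above control and KDM1B and SMARCE1 below it, where the background was 7.09% above and 8.11% below. With shRNA-146 alone KDM3A and KDM7A lay above and HDAC3 and HDAC8 below, where the background was 7.25% and 7.46%. Apart from BRWD3, SETD7 and BRPF3, these members and those named in the next paragraphs passed no edgeR test against control with all 9 libraries, the low count filter and no correction for length, and they are given as values.

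By role, the fold changes for the mean of both shRNAs leaned above 0 in most groups. The median over the 89 tested members was 0.26 without the block and 0.20 with it, with 67 of 89 above 0 in each, while the median of all tested genes was 0.03 and 0.01. Many members are long genes. In the longest of 5 bins by gene length, which held 50 of the 89, the median of all genes was 0.21 without the block. The share of all tested genes above 0 is not given, so the counts by role are a description. Among writers, the 7 genes grouped as H3K4 methyltransferases (KMT2E by its name alone) were all above 0. Their median was 0.54 without the block, from 0.40 for SETD1B to 0.99 ± 0.99 for KMT2D. KMT2C and KMT2D deposit H3K4 monomethylation at enhancers, and KMT2B and the SETD1 proteins methylate H3K4 at promoters. The 11 other methyltransferases had a median of 0.11 with 7 above 0, from -0.14 for SETD6 to 0.62 for SETD5. Among erasers of methylation, 4 of 6 H3K4 demethylases (median 0.23) and 9 of 11 tested H3K9, H3K27 and H3K36 demethylases (median 0.35) were above 0. KDM3A, an H3K9 demethylase, had the highest change of the KDM family, 0.59 ± 0.25 without the block, and KDM8 the lowest, -0.26 ± 0.31. KDM3A was at 8.69, 16.6 and 18.2 CPM with shRNA-143 and 14.3, 14.9 and 14.7 CPM with shRNA-146, against 8.05, 10.4 and 10.6 CPM in control. Only shRNA-143 replicate 1 lay within its control range. KMT2C, whose shRNA libraries numbered 2 and 3 were all above control, had 10.1, 40.3 and 39.7 CPM with shRNA-143 and 18.2, 39.1 and 42.2 CPM with shRNA-146, against 13.4, 30.5 and 22.1 CPM in control.

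The class I histone deacetylases were the group whose 4 members were all below 0, at -0.05 ± 0.18 for HDAC1, -0.25 ± 0.18 for HDAC2, -0.26 ± 0.14 for HDAC3 and -0.36 ± 0.19 for HDAC8 without the block. Scaling by library size alone turned HDAC1 to 0.05. HDAC3, the catalytic subunit of the NCOR and SMRT complexes, had 85.4, 67.1 and 73.3 CPM with shRNA-143 and 63.5, 56.7 and 54.4 CPM with shRNA-146, against 79.6, 74.1 and 84.3 CPM in control. Its shRNA-146 libraries all lay below control, while those of shRNA-143 lay on both sides of the control range. Of the 7 class II and IV deacetylases 5 were above 0 (median 0.18), led by HDAC5 at 0.63 ± 0.50. HDAC9, a class IIa member, had 10.4, 8.56 and 9.18 CPM with shRNA-143 and 13.6, 8.16 and 7.05 CPM with shRNA-146, against 7.11, 6.82 and 5.52 CPM in control, and shRNA-146 replicate 3 alone fell short of the highest control.

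Among readers and remodelers, 10 of 11 bromodomain proteins were above 0 (median 0.38), BRD7 being the exception at -0.04 (0.12 when scaled by library size). Of the 9 tested CHD remodelers 7 were above 0 (median 0.38), from -0.36 ± 0.41 for CHD4, the NuRD ATPase, to 0.94 ± 0.65 for CHD7. CHD4, which shares exon bases with a gene on its own strand, had 10.7, 29.3 and 39.2 CPM with shRNA-143 and 14.5, 26.5 and 36.5 CPM with shRNA-146, against 24.2, 30.1 and 46.0 CPM in control. Each of its shRNA libraries was below the control of its number. Of 12 BAF subunits 9 were above 0 (median 0.29), from -0.50 for SMARCE1 to 0.74 for SMARCC2. SMARCC2, a BAF core scaffold, had 16.1, 82.3 and 63.4 CPM with shRNA-143 and 8.32, 63.1 and 76.1 CPM with shRNA-146, against 8.91, 57.7 and 25.6 CPM in control, so that the groups overlapped through their libraries numbered 1. The 6 tested ARID proteins outside the BAF complex were all above 0 (median 0.36), led by ARID3A, a lymphoid and myeloid transcription factor, at 0.58, though ARID3B was at -0.04 without control replicate 1. The 4 ISWI and other SMARCA ATPases were near 0 (median 0.05).

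**Figure D2:**
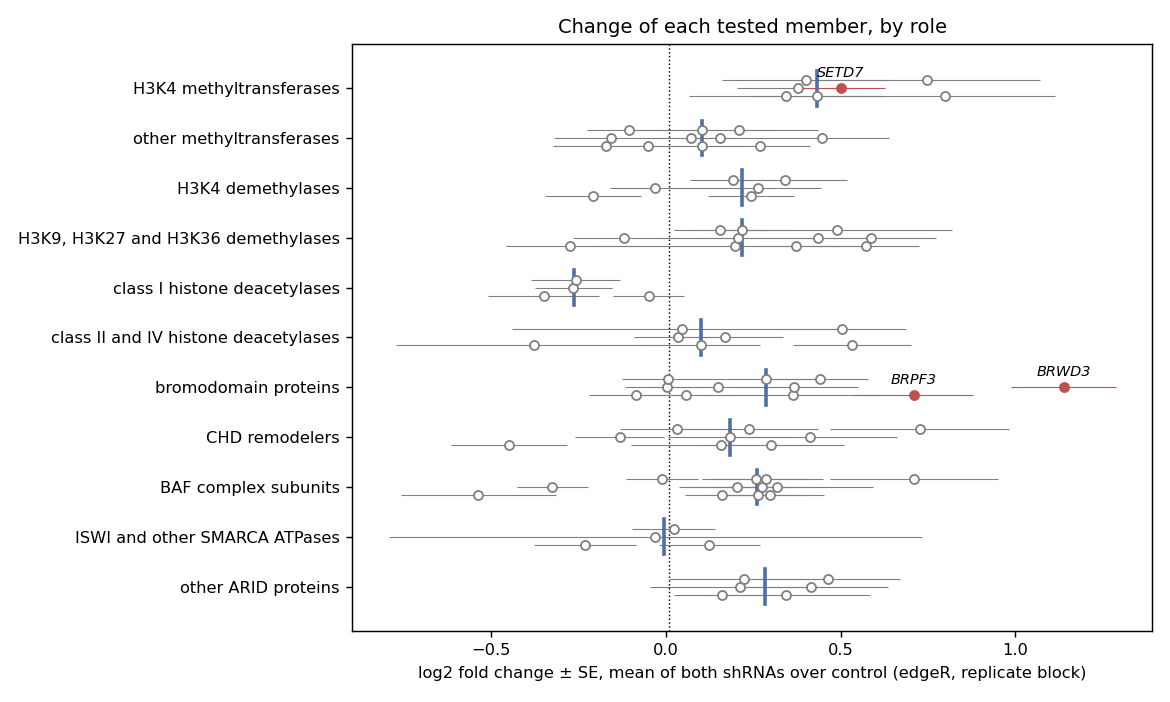
Log2 fold change ± SE of the tested members for the mean of both shRNAs over control in the fit with the replicate block, grouped by role (BRD3OS is not drawn). Blue bars are group medians, the dotted line is the median of all tested genes (0.01), and filled points passed at an adjusted p under 0.05, namely BRWD3, BRPF3 and SETD7.

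The members' lean above 0 depended on the replicate number. Against the control of the same number, the median member was at -0.05, 0.23 and 0.49 on the log2 CPM scale in the shRNA-143 libraries numbered 1, 2 and 3, with 40, 67 and 70 of 89 members above control. In the shRNA-146 libraries it was at -0.08, 0.05 and 0.52, with 39, 52 and 67 of 89 above. The median of all tested genes stayed between -0.01 and 0.02 in these pairs, and 49.5% to 51.3% of them were above control. The largest differences thus came from the pairs with control replicate 3, in which members held a smaller share of counts than in control replicate 2. Both shRNA groups are compared with the same 3 control libraries, so their values are not independent. Of the tested members 9 were above control in all 6 pairs (10.1%, against 12.4% of all tested genes), among them ARID5B, BRPF3, BRWD3, HDAC9, KDM2A, KDM2B, KDM3A and SETD7. The 5 that were below in all 6 were CHD4, HDAC2, HDAC8, KDM8 and SMARCB1 (5.62%, against 13.1%).

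**Figure D3:**
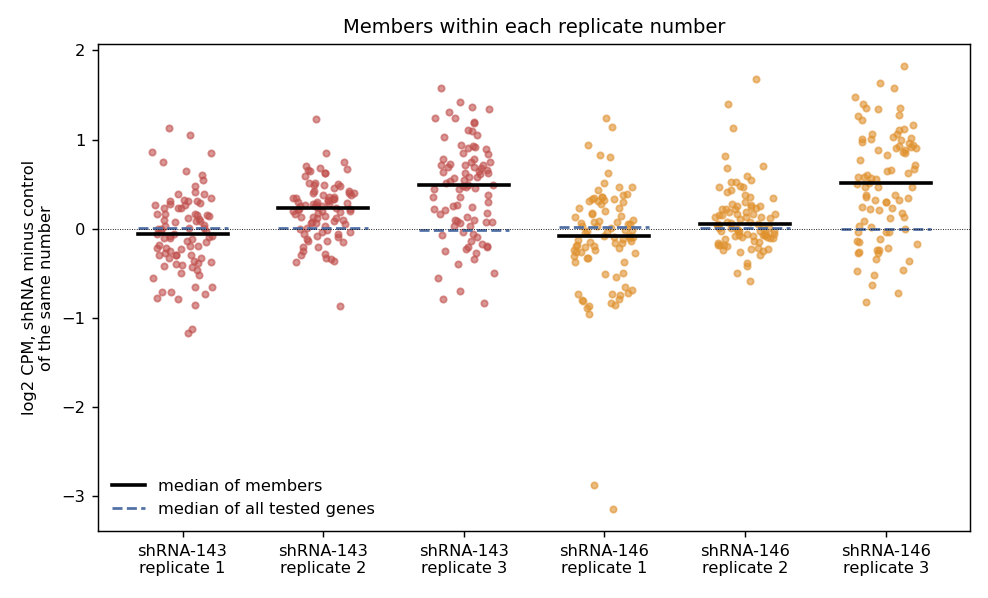
Difference in log2 CPM between each shRNA library and the control library of the same number, 1 point for each of the 89 tested members. Solid bars are member medians and dashed bars medians of all tested genes; the member median is lowest in replicate 1 (-0.05 and -0.08) and highest in replicate 3 (0.49 and 0.52).

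The members differed more between the libraries numbered 1 and the others than between either shRNA and control. In the fit with the block, 58 of 89 members were lower and 6 higher in the libraries numbered 1 than in those numbered 2 and 3, where 25.6% of all tested genes were lower and 24% higher. The median was -0.84 for members and 0.01 for all tested genes. This contrast was chosen after the data were seen, since these libraries stood apart, so its size cannot be weighed evenly against the shRNA comparisons. No label tells what the libraries of 1 number have in common. The largest differences were in SMARCA4, a catalytic ATPase of the BAF complex (-3.36 ± 0.32), in the H3K27 demethylase KDM6B (-3.29 ± 0.39), in KMT2D (-3.28 ± 0.36) and in SETD1A (-2.80 ± 0.31), with adjusted p-values from 7.7e-05 to 0.00015. SMARCA4 had 18.7 CPM in the library numbered 1 against 189 and 162 CPM in those numbered 2 and 3 with shRNA-143, 9.11 against 141 and 203 CPM with shRNA-146, and 16.7 against 149 and 79.4 CPM in control. KMT2D had 13.8 against 121 and 95.5 CPM with shRNA-143, 4.90 against 106 and 113 CPM with shRNA-146, and 8.19 against 73.9 and 31.9 CPM in control. In both genes the libraries numbered 1 of all groups lay below every other library.

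That difference was uneven across roles. Of 9 CHD remodelers 8 were lower, as were all 6 tested ARID proteins outside the BAF complex. So were 6 of the 7 genes grouped as H3K4 methyltransferases, 9 of 11 bromodomain proteins and 7 of 12 BAF subunits. SETD7 was the gene of that H3K4 group that was not lower (0.16 ± 0.12), and BRWD1 and BRWD3 were the bromodomain proteins that were not (0.28 ± 0.13 and -0.28 ± 0.14). None of the 4 class I deacetylases was lower, and HDAC1 was higher (0.39 ± 0.10, adjusted p = 0.00748), at 272, 230 and 258 CPM in the libraries numbered 1 against 178 to 212 CPM in the others. SETD9, SETD4, HDAC9, SMARCD3 and BRD3OS were also higher, by 0.37 to 0.83. Counting libraries, 58 members had all 3 libraries numbered 1 below the other 6 (65.2%, against 20.3% of all tested genes) and 3 had them above (3.37%, against 14.3%). Among 5 bins of tested genes by transcript GC, the median difference in the highest bin was -1.50 for 17 members and -0.53 for all genes. In the lowest bin it was -0.34 for 16 members and 0.32 for all genes. Over the 89 members, the correlation of this difference with transcript GC was -0.41 (Pearson) and -0.39 (Spearman). These points share the same 9 libraries and are given as a description.

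**Figure D4:**
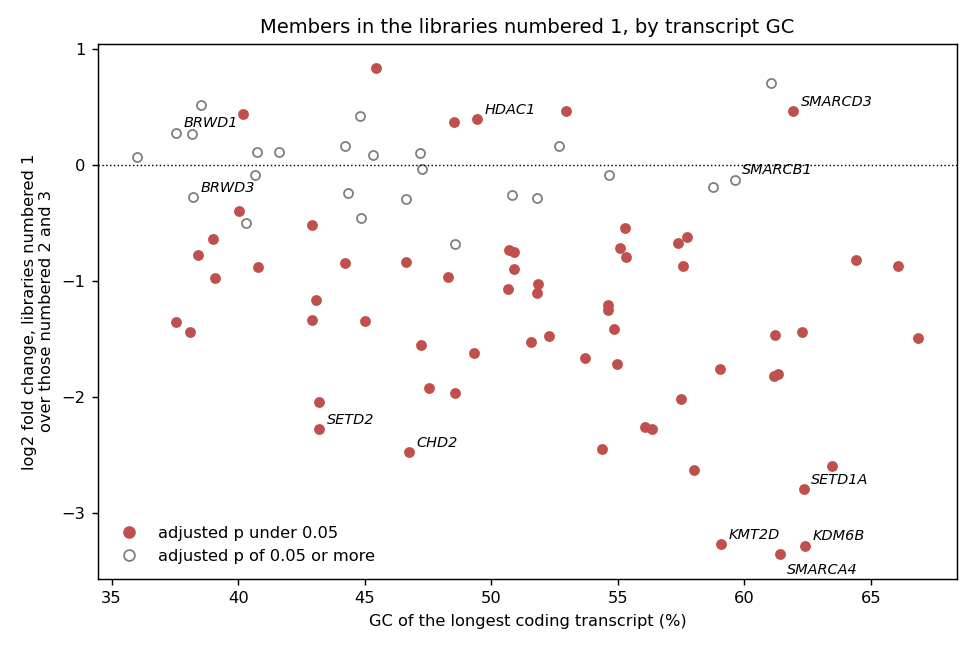
Log2 fold change of the libraries numbered 1 over those numbered 2 and 3 (fit with the replicate block) for each tested member against the GC percent of its longest coding transcript. Filled points passed at an adjusted p under 0.05; SMARCA4, KDM6B and KMT2D lie lowest, and HDAC1 and SMARCD3 are above 0.

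Without the libraries numbered 1, more members passed against control. With 2 libraries left in each group and no block, 21 of 89 members rose for the mean of both shRNAs and 0 fell, a share of 23.6% where 5.15% of 15155 tested genes rose and 4.92% fell. With the block added, 28 rose and 4 fell (HDAC2, HDAC3, SMARCB1 and SMARCE1), where 9.86% of all tested genes rose and 9.29% fell. The log2 fold changes of the 21 without the block ran from 0.47 for SETD7 to 1.17 for BRWD3. With shRNA-143 alone 7 members rose and 0 fell (7.87% up, background 2% up and 1.89% down). With the block added 15 rose and 2 fell (background 5.60% up and 4.80% down). With shRNA-146 alone 7 rose and 2 fell, HDAC2 and HDAC3 (background 3.44% up and 2.83% down). With the block added 18 rose and 3 fell (background 7.69% up and 6.24% down). Without the block ARID4B, BRWD3, CHD7 and HDAC5 rose with each shRNA, where 291 of the 15155 tested genes rose with both or fell with both.

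After BRWD3, the strongest of them was CHD7, a remodeler found at enhancers (1.08 ± 0.17 over both shRNAs, adjusted p = 0.00584). It had 24.3 and 24.2 CPM with shRNA-143 and 21.9 and 26.2 CPM with shRNA-146, against 13.5 and 9.36 CPM in control, in the libraries numbered 2 and 3. HDAC5, a class IIa deacetylase, had 66.5 and 66.0 CPM with shRNA-143 and 63.4 and 80.8 CPM with shRNA-146, against 42.1 and 40.2 CPM in control (0.75 ± 0.13, adjusted p = 0.00935). Both genes had groups that did not overlap among these 6 libraries, and the share of all genes that did so is not given. As both were named for passing on the same libraries, the lack of overlap adds no support. The 21 took in 4 of the 7 genes grouped as H3K4 methyltransferases (KMT2C, KMT2D, SETD7 and, by its name alone, KMT2E) and 5 of 11 bromodomain proteins (among them BRD1, BRPF1, BRPF3 and BRWD3). They also held 4 of 9 CHD remodelers (CHD1, CHD3, CHD7 and CHD8), ARID1B, ARID3A, ARID4A and ARID4B, SETD2, SETD5, KDM3A and HDAC5. Within the control group, members still held 0.432% of counts in replicate 2 and 0.329% in replicate 3, and the part of that difference in these calls was not tested. Leaving out shRNA-146 replicate 1 alone, with the block, gave 18 members up and 4 down for both shRNAs, where 10.2% of 15333 tested genes rose and 9.87% fell, against 3 and 0 members with that library.

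Members are long genes, and changes over both shRNAs followed gene length in all genes. The median deposited length of the tested members was 8632 bases, against 4550 for all tested genes, and 50 of 89 members were in the longest of 5 bins with equal numbers of genes. In the fit without the block, the median change of all genes was -0.20, -0.09, 0.03, 0.11 and 0.21 from the shortest to the longest bin. Members had 0, 5, 14, 20 and 50 genes in these bins, with medians of -0.01, 0.05, 0.30 and 0.38 in the upper 4. With a correction for gene length and the block, the median member was at 0.07, BRWD3 rose (0.92 ± 0.14, adjusted p = 0.00752), and CHD4 (-0.66 ± 0.15, adjusted p = 0.0335) and SMARCB1 (-0.56 ± 0.11, adjusted p = 0.0211) fell, where 2.27% of all tested genes rose and 2% fell. With a further correction for GC, 4 members rose (BRWD3, BRPF3, HDAC5 and SETD7) and 5 fell (CHD4, HDAC2, SMARCA5, SMARCB1 and SMARCE1), where 6.51% of all tested genes rose and 7.02% fell.

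**Figure D5:**
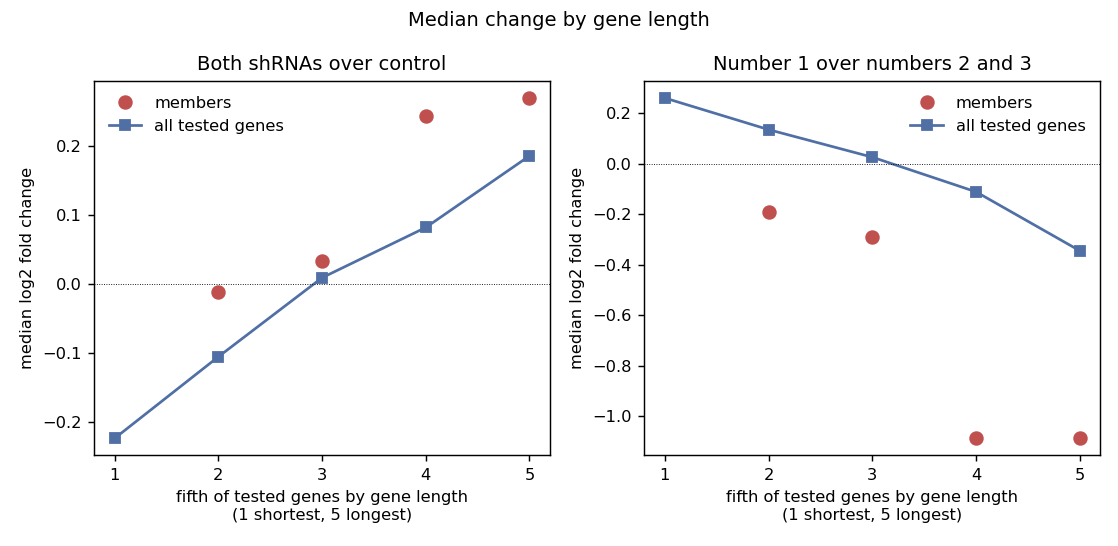
Median log2 fold change by bin of deposited gene length (5 bins of tested genes), for members (circles) and all tested genes (squares), in the fit with the replicate block. In both panels all genes trend with length, and the members (5, 14, 20 and 50 in the upper 4 bins) lie above that line for both shRNAs over control and below it for the libraries numbered 1.

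Between the shRNAs, 0 of 89 members passed in either fit, where 1.2% of all tested genes passed with the block. Without the block 1 member was higher and 0 were lower at an unadjusted p under 0.05, a cut at which the share of all genes is not given. DESeq2 called 0 members where it called 0.594% of all tested genes. The difference of shRNA-146 from shRNA-143 was 0.07 ± 0.16 for BRWD3, 0.01 ± 0.19 for BRPF3 and 0.17 ± 0.14 for SETD7 with the block. The widest were in 2 members with low counts. KDM7A, an H3K9 and H3K27 demethylase, had 1.42, 1.33 and 0.920 CPM with shRNA-146 against 1.0, 0.435 and 0.437 CPM with shRNA-143 (1.04 ± 0.37 with the block, adjusted p = 0.314). Its groups overlapped. HDAC11 had 0.431, 0.636 and 0.502 CPM with shRNA-146 against 0.333, 0.311 and 0.153 CPM with shRNA-143, and a change of 1.06 ± 0.54 with the block (adjusted p = 0.549). The HDAC11 groups did not overlap, but they rest on 7 to 31 reads in each shRNA library. The share of all genes without overlap between the shRNAs is not given, so nothing can be read from it.

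Other chromatin genes were examined in a list of 122 without these prefixes, all of them tested. Without the block 0 passed for the mean of both shRNAs, with 3 higher and 4 lower at an unadjusted p under 0.05. As the share of all genes at that cut is not given, no excess can be read from these counts. With the block 4 rose and 3 fell (3.28% and 2.46% of the list), close to the 2.98% and 2.75% of all tested genes. NCOA3, a nuclear receptor coactivator, rose by 0.85 ± 0.12 (adjusted p = 0.00756), at 22.8, 36.3 and 24.4 CPM with shRNA-143 and 35.02, 41.5 and 29.5 CPM with shRNA-146, against 15.8, 20.6 and 15.6 CPM in control. PCGF3, a Polycomb repressive complex 1 subunit, rose by 0.69 ± 0.11 (adjusted p = 0.00936), the acetyltransferase KAT2B by 0.65 ± 0.14 (adjusted p = 0.0269) and the coactivator NCOA2 by 0.53 ± 0.14 (adjusted p = 0.0471). PRMT1, the main asymmetric arginine methyltransferase, WDR5, a core partner of the H3K4 methyltransferases, and PCGF2 fell, with log2 fold changes of -0.49 ± 0.10 (adjusted p = 0.0258), -0.44 ± 0.11 (adjusted p = 0.0412) and -0.75 ± 0.19 (adjusted p = 0.0454). WDR5 had 73.6, 68.1 and 60.7 CPM with shRNA-143 and 105, 99.3 and 86.6 CPM with shRNA-146, against 112, 104 and 112 CPM in control, so its shRNA-146 libraries overlapped with control. The list's median was 0.09 without the block and 0.06 with it, and 65 of its 122 genes were lower in the libraries numbered 1, with a median of -0.54.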

How the data were processed

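RNA-seq libraries of THP-1 cells (3 groups of 3) were analysed from the deposited files. The authors deposited raw counts per gene; fastp, STAR 2.5, featureCounts, DESeq2 and the hg38 build are named, per the submitters' processing notes, with no role or order, and no source used here gives the strand setting. All 58735 gene identifiers are in GENCODE release 29. The authors' comparison tables also hold, per the file headers, a normalized signal (counts divided by a size factor), FPKM values, and the authors' own log2 fold changes and p-values. The signal and FPKM columns were not used here.

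Counts were filtered (filterByExpr), TMM scaled and fitted with edgeR 4.0.16 (glmQLFit with robust dispersion, glmQLFTest; R 4.3.3) over all 9 libraries without a block (6 residual degrees of freedom). Benjamini-Hochberg adjustment ran over the 14975 tested genes, and the threshold was 0.05. A second fit had a block for replicate number (4 residual degrees of freedom). Same-numbered libraries deviated from their group means alike (r of 0.252 to 0.758 over all genes, 0.454 to 0.884 over members), so blocked values are given where they change a call. Pairs of unlike numbers ran from -0.678 to 0.535 over all genes and from -0.877 to 0.793 over members. Over all genes, shRNA-143 replicate 3 had r of 0.329 with control replicate 3 and 0.450 with control replicate 2. For shRNA-146 replicate 3 these values were 0.252 and 0.520. The pairing by number is thus a pattern in the counts that is weaker for control replicate 3, and the labels only number the libraries. DESeq2 1.42.0, limma 3.58.1 (voom), other scalings, no filter, length and GC corrections (loess offsets) and left-out libraries were alternatives. The fits were tested on simulated counts. Errors of fold changes are standard errors.

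The members, lists, roles and tests were chosen with earlier results of these data known. Genes named by rule are members that passed in any comparison, per prefix the highest level per length and the largest positive and negative changes, members that failed the filter, and listed chromatin genes that passed. Other genes named were chosen after their values were seen. Some genes that the rule selects are not reported here by name. Of the 92 members, 46 share exon bases with another gene, 15 of them on the same strand, so their counts are uncertain. Those of the 15 named here are ARID4B, BRD2, CHD1L, CHD4, CHD5, CHD8, CHD9, HDAC8, SMARCA4 and SMARCE1.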

Additional observations from a re-analysis of the deposited data

How the results depend on the processing

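The counts of members that passed (0 without the block for shRNA-143, shRNA-146 and the mean of both) depended on the replicate block and on the libraries numbered 1; the cause was not tested. They were 1, 2 and 3 with the replicate block, with TMM, median-of-ratios scaling or voom, 1, 2 and 2 with library size scaling and the block, 2, 2 and 3 with the length correction and the block, and 8, 7 and 9 with length and GC corrections and the block. DESeq2 gave 1, 1 and 1 without the block and 4, 7 and 9 with it, where it called 6.75%, 9.35% and 10.8% of all genes. No low count filter gave 11, 10 and 13 with the block (10, 10 and 12 of them up), where 4.50%, 5.99% and 7.06% of 27582 genes were called, and CHD9 then passed between the shRNAs (1, where 1.58% of genes did). Without the libraries numbered 1 they were 7, 9 and 21, and with the block added 17, 21 and 32 (15, 18 and 28 of them up), where 10.4%, 13.9% and 19.1% of 15155 genes were called. Members passing in the same direction with both shRNAs numbered 1 with the block under TMM, median-of-ratios, library size or length correction or voom, where 139 to 220 of all genes did. In DESeq2 they numbered 1 without the block (50 genes) and 3 with it (467 genes). Without the libraries numbered 1 they were 4 (291 genes), and 11 with the block (873 genes). With the block they were 5 with length and GC corrections (582 genes) and 6 without the filter (568 genes). Leaving out 1 library gave 0 members without the block. With the block it gave 0 to 14 members for shRNA-143, 0 to 14 for shRNA-146, 0 to 22 for both and 0 to 9 in the same direction. Of all genes, 55 to 2099, 27 to 1745, 14 to 3075 and 11 to 878 then passed. The highest member counts came without shRNA-146 replicate 1 (14, 14 and 22), and 0 for both came without control replicate 2 or control replicate 3. The member median for both shRNAs then ran from 0.07 to 0.44 without the block and from 0.03 to 0.33 with it. The block changed no call other than those given in the report. Small changes turned sign, none of them past the threshold. For both shRNAs, library size scaling, which moved the median of all genes to 0.15, gave BRD7 0.12 (0.025 with the block), HDAC1 0.053 (0.063), KDM1A 0.11 (0.076), KMT5B 0.011 (0.0087) and SMARCD2 0.12 (0.10). Without the libraries numbered 1 BRD7 was at 0.026, KDM1A at 0.11, SETD3 at -0.0034 (-0.0036 with the block) and SMARCD2 at 0.0089 (0.011). BRWD1 was at -0.23 with the length correction, -0.24 with length and GC corrections, -0.0035 without the filter (-0.0039 with the block) and -0.0022 with voom (-0.0016), and SMARCD2 at 0.036 and 0.032 with the corrections. Between the shRNAs BRWD3 was at -0.094 (-0.093 with the block) and SETD7 at -0.0055 (-0.0068 with the block) without the libraries numbered 1, BRWD3 at -0.046 with length and GC corrections and BRPF3 at -0.0046 with the length correction. Leaving out 1 library, with or without the block, also reversed ARID3B (-0.037 to 0.44), BRD2 (-0.12 to 0.62), BRD7 (-0.29 to 0.21), BRPF1 (-0.025 to 1.17), BRWD1 (-0.11 to 0.13), HDAC1 (-0.16 to 0.087), KDM1A (-0.16 to 0.11), KMT5A (-0.0098 to 0.36), SETD3 (-0.0085 to 0.16) and SMARCD2 (-0.064 to 0.064) against control, and BRPF3 (-0.29 to 0.37), BRWD3 (-0.11 to 0.16) and NFATC2 (-0.20 to 0.61) between the shRNAs. Low counts limit what can be said of SMARCA1, HDAC11 and KDM7A.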
